A study of Mus musculus with 24 samples.

Results

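Etv4, Etv5, Etv1, Spry1, Spry2, Spry4, Dusp6, Spred1 and Spred2 are 9 genes that act downstream of fibroblast growth factor (FGF) receptors, and they were followed here through the day in mouse retinal pigment epithelium (RPE), the pigmented layer behind the photoreceptors. They were taken by name from a table of 54532 genes, and 9 of 9 passed the filter on low counts that left 18065 genes. The list was chosen by the CPM of Etv4, which had been seen to rise by midday in these libraries, so the values of Etv4 are given as a description, with no test, and the question asked of the other 8 is whether they followed. RNA was sequenced from 24 wild-type mice of the strain written 129S1/SvlmJ in the labels, with the Leu450 form of Rpe65. The animals ate a standard diet and lived in a cycle with 12 h of light, which came on at 7 am. Groups of 3 mice were taken 0, 1, 3, 5, 6, 9, 15 and 16 h after light onset, so 15 h and 16 h lay in the dark. No group carried a mutation or received a treatment.

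FGF receptors signal through RAS, RAF, MEK and the kinase ERK, and ERK switches on a small set of genes that either pass the signal on or shut it down. Etv1, Etv4 and Etv5 are the PEA3 group of ETS transcription factors, which bind DNA at GGAA cores and carry the response into the nucleus. Sprouty proteins (Spry1, Spry2, Spry4) and the related Spred proteins hold back the steps between receptor and RAF, and Dusp6 is a phosphatase that removes the activating phosphates of ERK. Capicua (Cic) represses several of these genes until ERK relieves it. In the embryonic eye, strong FGF and ERK signalling turns presumptive RPE towards neural retina, and the epithelium of adult animals still expresses FGF ligands and receptors.

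Libraries held 14073440 to 17492470 counts. The libraries of mouse 3 at 15 h and at 6 h differed from the other 22. Mitochondria-encoded transcripts made up 0.837% and 3.34% of their counts, against 3.84% to 6.81% elsewhere, and red blood cell genes summed to 8770 and 3330 CPM (counts normalised to library size, scaled by the trimmed mean of M-values), against 399 to 1930. Results are therefore given with 24 libraries and again with 22. Of the RPE markers 12 of 12 were measured, with a sum of 35500 to 51500 CPM over the 22 libraries, while rod markers summed to 435 to 4070 and choroid endothelial markers to 346 to 883. Inner retina and glial markers summed to 6150 to 9670, melanocyte and Schwann cell markers to 5270 to 7180, and fibroblast and mural markers to 1770 to 2650. In such bulk tissue, fewer cells of a type and less RNA per cell cannot be told apart.

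The 9 genes differed widely in level. Per kilobase of the gene length listed in the table, Dusp6 was the most abundant, with a median of 125 CPM per kb over 24 libraries. Spry1 followed at 40.3, Spry2 at 29.8, Etv5 at 26.2 and Spry4 at 14.2. Spred1 stood at 9.38 and Spred2 at 8.31, then Etv4 at 2.31, and Etv1 was lowest at 0.579. Between neighbours in this order the library ranges were separate for Dusp6 against Spry1 and for Spred2 against Etv4, and overlapped in the other 6 pairs. Spry2 exceeded Etv5 within 13 of 24 libraries, so those neighbours had no clear order. Raw counts ran from 40 to 214 for Etv4 and from 84 to 197 for Etv1, which limits their precision, and from 1784 to 10077 for Dusp6.

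Upstream sequence is shown for Etv5 and Spry2, the members other than Etv4 that passed the test for variation over the day in 24 libraries, and for Dusp6, the member with the highest level. The bases come from RefSeq starts on GRCm38.p6, the build the labels call mm10. The windows searched cover 9 starts of 7 of the 9 members, and no window of Etv4 or Spry4 was used. Each stretch is the 250 bases before a start, read 5′ to 3′ on the gene's strand. For Etv5 the second of its starts is shown. Capitals mark an octamer bound by Cic (TGAATGAA, TCAATGAA, TGAATGGA or TCAATGGA, on either strand).
Etv5, chr16:22438369-22438618, minus strand: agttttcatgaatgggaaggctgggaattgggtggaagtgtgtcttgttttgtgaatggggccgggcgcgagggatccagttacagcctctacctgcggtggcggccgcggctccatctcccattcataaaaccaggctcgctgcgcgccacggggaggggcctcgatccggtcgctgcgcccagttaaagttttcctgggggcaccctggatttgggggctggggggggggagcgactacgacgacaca
Spry2, chr14:105896820-105897069, minus strand: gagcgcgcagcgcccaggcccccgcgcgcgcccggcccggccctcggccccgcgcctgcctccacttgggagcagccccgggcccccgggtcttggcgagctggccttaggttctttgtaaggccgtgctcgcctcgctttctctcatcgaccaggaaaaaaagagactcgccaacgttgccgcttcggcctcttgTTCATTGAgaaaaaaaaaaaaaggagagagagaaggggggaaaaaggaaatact
Dusp6, chr10:99262981-99263230, plus strand: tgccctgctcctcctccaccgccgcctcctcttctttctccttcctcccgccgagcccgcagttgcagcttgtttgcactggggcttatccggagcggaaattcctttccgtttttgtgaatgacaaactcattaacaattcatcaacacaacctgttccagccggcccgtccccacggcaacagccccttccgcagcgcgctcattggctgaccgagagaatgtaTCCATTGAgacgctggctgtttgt
The octamer lay in 2 of the 9 member windows, once in Spry2 beginning 54 bases before the start (TTCATTGA) and once in Dusp6 beginning 24 bases before it (TCCATTGA). Among 32851 such windows of the whole table, 3.19% held it. Also searched on both strands, with no overlap with the octamer, were an ETS site (CCGGAAGT, in 2.88% of windows), the E-box bound by clock activators (CACGTG, 6.02%), the D-box (TTATGTAA or TTACATAA, 0.819%) and the cyclic AMP response element (TGACGTCA, 1.55%). These letters were found in 0 of the 9 member windows. A match describes the letters of a window and is not a measured binding site.

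Etv4 (ENSMUSG00000017724, chromosome 11, 101769742 to 101785371, mm10) set the pattern against which the others were read. At 0 h the 3 mice were at 3.36, 2.67 and 2.85 CPM, and at 1 h at 4.6, 6.52 and 5.01. At 3 h they were at 4.66, 4.18 and 3.79, at 5 h at 12.3, 9.72 and 9.05, and at 6 h at 8.57, 11.6 and 12.7. The 9 h mice stood at 9.5, 12.7 and 11.5 CPM, those of 15 h at 5.4, 8.54 and 9.19, and those of 16 h at 7.47, 6.86 and 5.13. Each mouse of 1 h and of 3 h was above each mouse of 0 h, and each mouse of 5, 6 and 9 h was higher than any of the first 3 times. The mean at 9 h was 3.79-fold that at 0 h. On the log2 scale the mean of 5 h and 6 h exceeded 0 h by 1.84 (SE 0.21), and by 1.79 (SE 0.20) in 22 libraries. A fitted 24 h cosine had a peak-to-trough log2 ratio of 2.05 ± 0.29 (jackknife SE) and a peak at 9.6 ± 0.3 h. That peak lies between the sampled times of 9 h and 15 h, and the means at 5, 6 and 9 h were 10.4, 11 and 11.2 CPM. The ratio was 1.73 without the 0 h libraries and 2.35 without those of 15 h and 16 h. Levels at 15 h and 16 h had come down from midday but stayed above those of 0 h.

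**Figure D1:**
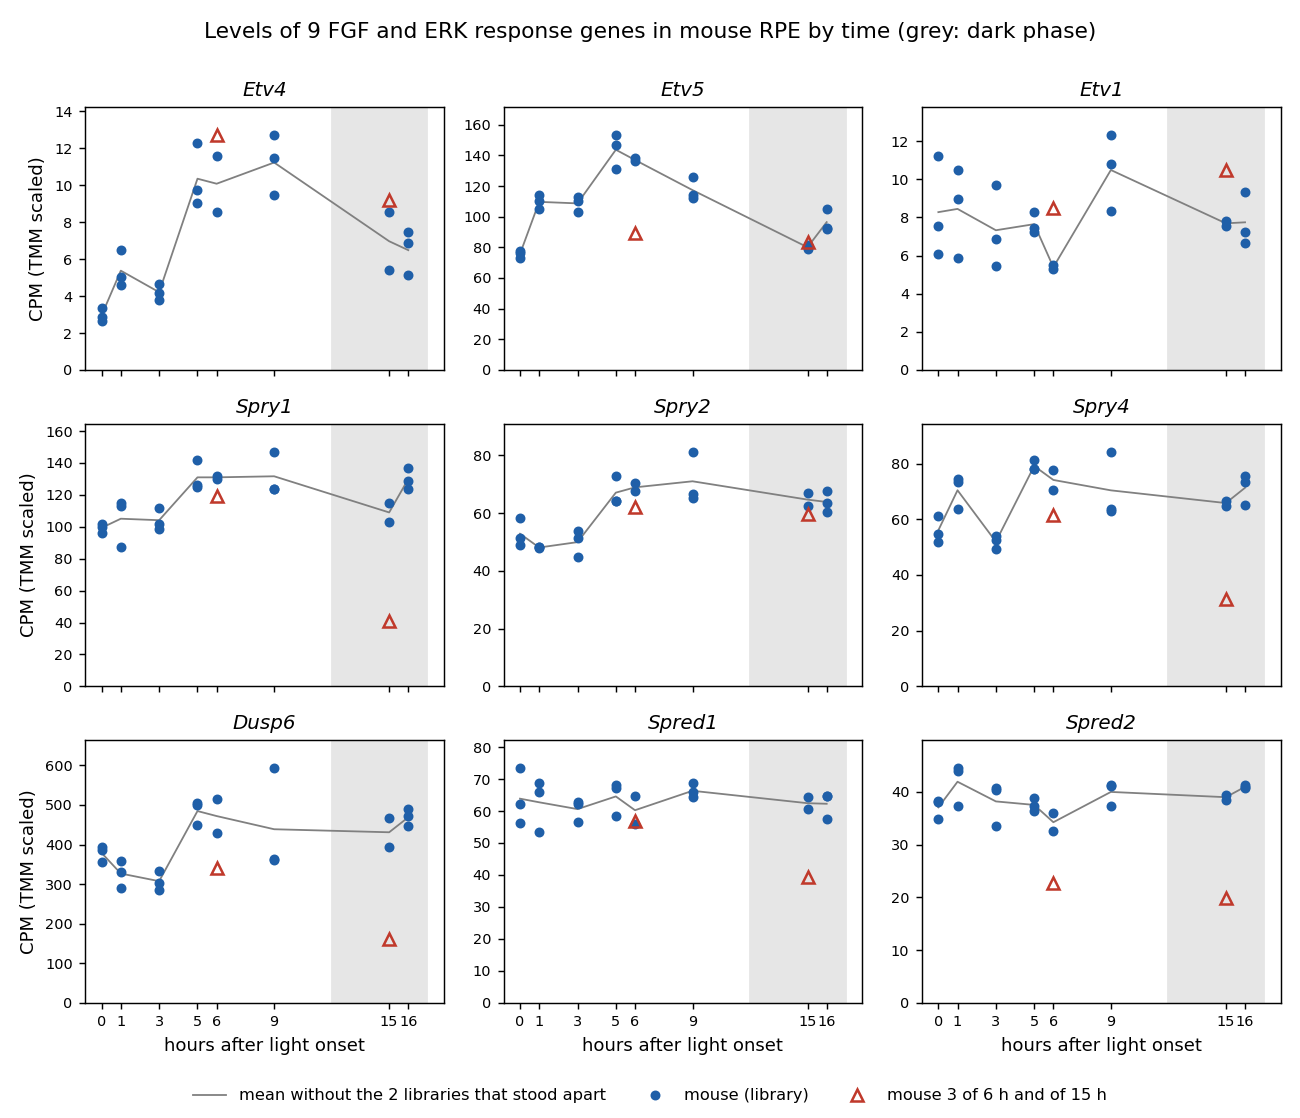
Level of each gene in every mouse (y axis, CPM; x axis, hours after light onset), with dots for 22 libraries, open triangles for mouse 3 of 6 h and of 15 h, and a line through the means of the 22. Etv4 and Etv5 are lowest at 0 h, the sprouty genes and Dusp6 step up between 3 h and 5 h, and Etv1, Spred1 and Spred2 show no such step.

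Etv5 had the largest midday difference of the 8 other members. Etv5 (ENSMUSG00000013089, chromosome 16, 22381309 to 22439719) was at 77.5, 72.9 and 76.6 CPM in the mice of 0 h and at 114, 105 and 110 at 1 h. At 3 h it was at 110, 113 and 103, at 5 h at 153, 147 and 131, and at 6 h at 138, 136 and 89.5, the last in mouse 3. At 9 h it was at 112, 114 and 126, at 15 h at 81.2, 78.9 and 83.8, and at 16 h at 105, 92.5 and 91.8. Values were highest at 5 h, each mouse of 1 h and 3 h already exceeded each mouse of 0 h, and the 15 h mice lay close to the level of light onset. Etv5 varied over time (log2 range of the time means 0.92, adjusted p = 0.00388). Its fitted 24 h component was 0.75 ± 0.17, peaking 7.3 ± 0.6 h after light onset (adjusted p = 0.0132). At midday (mean of 5 h and 6 h) it exceeded 0 h by 0.80 (SE 0.11, adjusted p = 0.0015), higher in 6 of 6 mice. Daytime (mean of 5, 6 and 9 h) exceeded night (mean of 15 h and 16 h) by 0.52 (SE 0.08, adjusted p = 0.0018). Over 30 alternatives the calls for the time course, midday and daytime all held, with adjusted p up to 0.0223, 0.0345 and 0.0119. The 24 h call held in 31 of 32 and ended without the 0 h libraries (adjusted p = 0.051, in a range from 0.000884). The component itself was 0.57 without the 0 h libraries and 1.38 without those of 15 h and 16 h.

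Etv1, the other PEA3 factor, passed no test in either set of libraries. Etv1 (ENSMUSG00000004151, chromosome 12, 38779380 to 38870484) was at 11.2, 6.08 and 7.55 CPM at 0 h, at 7.43, 7.24 and 8.27 at 5 h and at 5.5, 5.28 and 8.5 at 6 h. Its highest mean was 10.5 ± 2 CPM at 9 h and its lowest 6.43 ± 1.8 at 6 h (SD, n = 3), and mice of these times overlapped through mouse 3 of 6 h, at 8.5 CPM. Without it the 6 h mice, at 5.5 and 5.28, were below each 9 h mouse, and the fold between the highest and the lowest time mean was 1.95 in 22 libraries against 1.63 in 24. The midday difference from 0 h was -0.24 (SE 0.23, adjusted p = 0.911) and -0.36 (SE 0.21, adjusted p = 0.365) in 22 libraries. Without mouse 1 of 0 h it was 0.03.

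In the 3 sprouty genes each mouse of 5 h was above each mouse of 3 h. Spry2 (ENSMUSG00000022114, chromosome 14, 105891947 to 105896819), an inhibitor of receptor to RAF signalling, was at 51.4, 48.8 and 58.3 CPM at 0 h, 48.3, 47.8 and 48.1 at 1 h and 51.4, 53.7 and 44.7 at 3 h. It was at 72.8, 64.1 and 64.3 at 5 h, 70.3, 67.5 and 62.1 at 6 h and 65.3, 66.5 and 81.2 at 9 h. At night it stood at 66.9, 62.4 and 59.7 at 15 h and 60.5, 63.5 and 67.5 at 16 h. The 9 mice of the first 3 times were at 58.3 CPM or less, and the 15 mice of later times at 59.7 or more. Spry2 varied over time (log2 range 0.56, adjusted p = 0.0193), and its 24 h component was 0.61 ± 0.11 (adjusted p = 0.00261). The fitted peak, at 10.5 ± 0.4 h, lies between the sampled times of 9 h and 15 h. The 24 h call held in 32 of 32 alternatives (7.81e-06 to 0.0184). The call over time held in 22 of 30 (7.08e-07 to 0.127) and ended without filtering low counts or without mouse 1 or 2 of 0 h, any mouse of 1 h, or mouse 1 or 3 of 3 h. At midday it was 0.34 above 0 h (SE 0.09, adjusted p = 0.139), in 22 libraries 0.37 (SE 0.08, adjusted p = 0.00836).

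Spry1 (ENSMUSG00000037211, chromosome 3, 37639947 to 37644598) was at 100, 96.1 and 102 CPM at 0 h, 113, 87.2 and 115 at 1 h and 112, 102 and 98.4 at 3 h. It reached 125, 142 and 126 at 5 h, 130, 132 and 119 at 6 h and 124, 124 and 147 at 9 h. At 15 h it was at 115, 103 and 41.1, the last in mouse 3, and at 16 h at 137, 124 and 129. Each mouse of 5, 6 and 9 h exceeded each of the first 3 times, as did each mouse of 16 h. Midday exceeded 0 h by 0.37 (SE 0.20, adjusted p = 0.646), which did not pass in 24 libraries, and by 0.40 (SE 0.08, adjusted p = 0.00396) in 22. In 22 libraries Spry1 also varied over time (adjusted p = 0.00233) and had a 24 h component (0.47, adjusted p = 0.0104), against 0.374 and 0.433 in 24. An unstranded kit was used, and 24.4% of the exonic bases of Spry1 are shared with Gm42922, annotated on the opposite strand, so its reads are less certain. The other 8 members share 0 exonic bases with another gene in GENCODE vM21.

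Spry4 (ENSMUSG00000024427, chromosome 18, 38586268 to 38601268) also differed at 1 h in its library values, as Etv4 and Etv5 did. The 0 h mice were at 52, 54.8 and 61.3 CPM and the 1 h mice at 73.2, 63.5 and 74.5. The 3 h mice were at 49.2, 52.5 and 54.1, and the 5 h mice at 78.1, 78 and 81.2. The level at 5 h was the highest time mean. Later mice were at 77.6, 70.6 and 61.5 (6 h), 63.8, 63.1 and 84.2 (9 h), 64.9, 66.7 and 31.4 (15 h) and 73.4, 75.5 and 65 (16 h). Each mouse of 1 h exceeded each of 0 h and 3 h, and 5 h exceeded 3 h with no overlap, so the 3 h mean was below those of 1 h and 5 h. The 1 h difference of 0.33 (SE 0.19, adjusted p = 1) did not pass, nor did the midday difference of 0.41 (SE 0.17, adjusted p = 0.44). In 22 libraries these were 0.34 (SE 0.09, adjusted p = 0.112) and 0.46 (SE 0.09, adjusted p = 0.00205), and Spry4 varied over time (adjusted p = 0.000831). Its 24 h component did not pass in either set (0.31, adjusted p = 0.631, and 0.34, adjusted p = 0.32).

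Dusp6 (ENSMUSG00000019960, chromosome 10, 99263231 to 99267489) was at 387, 355 and 394 CPM at 0 h, 331, 290 and 359 at 1 h and 302, 286 and 334 at 3 h. It stood at 450, 499 and 505 at 5 h, 516, 428 and 341 at 6 h and 360, 363 and 593 at 9 h. At 15 h it was at 467, 395 and 161, and at 16 h at 490, 471 and 446. Each mouse of 3 h was below each of 0 h, and each mouse of 5 h was above both. Over time the log2 range of 0.66 did not pass (adjusted p = 0.412), and in 22 libraries it did (adjusted p = 0.0184). The midday difference of 0.27 (SE 0.23, adjusted p = 0.873) and that of 0.34 (SE 0.13, adjusted p = 0.153) in 22 libraries did not pass. Mouse 3 of 9 h was at 593 CPM and the other mice of that time at 360 and 363, which fell within the range of 0 h.

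Spred1 and Spred2, which suppress RAS through neurofibromin, passed no test in either set of libraries. Spred1 (ENSMUSG00000027351, chromosome 2, 117121374 to 117182279) had time means from 54.8 ± 13.5 CPM at 15 h to 66.3 ± 2.2 at 9 h (SD, n = 3), and its midday difference from 0 h was -0.05 (SE 0.13, adjusted p = 0.978). Without mouse 1 of 0 h that difference was 0.06. Spred2 (ENSMUSG00000045671, chromosome 11, 19924375 to 20024026) ranged from 30.4 ± 6.84 CPM at 6 h to 41.9 ± 4.02 at 1 h, with a midday difference of -0.13 (SE 0.16, adjusted p = 0.937). In 22 libraries the midday differences were -0.03 (SE 0.09, adjusted p = 0.912) and -0.04 (SE 0.08, adjusted p = 0.831). The lowest values of both genes, 39.4 and 19.8 CPM, came from mouse 3 of 15 h.

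Calls here and above are at an adjusted p under 0.05 from edgeR's quasi-likelihood test, adjusted over all genes. Counted together, 1 of the 8 members other than Etv4 was higher at midday than at light onset in 24 libraries, where 0.199% of all genes were called higher. In 22 libraries 4 of 8 were (Etv5, Spry1, Spry2 and Spry4), against 2.76% of all genes. With DESeq2 on 24 libraries 2 of 8 were called at midday, Etv5 and Spry2 (background 1.54%). The median midday difference of the 8 was 0.31, and 0.36 in 22 libraries, against 0 and -0.01 over all genes tested. Over the time course 2 of 8 were called (background 1.08%), and 5 of 8 in 22 libraries (15.6%). The median log2 range of their time means was 0.60, below the 0.67 of all genes tested. In 22 libraries these medians were 0.58 and 0.50. For the 24 h component 2 of 8 were called (1.67%), and 3 of 8 in 22 libraries (6.12%). Its median in the 8 was 0.36 against 0.33 over all genes, and 0.41 against 0.25 in 22 libraries. At midday 4 of these 8 had every library above every library of 0 h, and 5 in 22 libraries, where 3.89% and 6.63% of all genes did. At 3 h this held for 1 of 8, Etv5 (6.47%), and at 9 h for 4 (12.9%). All comparisons with light onset, here and below, share the same 3 mice of 0 h, so their counts are not independent. Mice of 5 h lay above those of 3 h for 5 of 8, against 9.98% of all genes. For Dusp6 at 3 h below 0 h and Spry4 at 1 h above 3 h, that share was not counted. Other separations of single genes above have no such share unless 1 is given here or below. From the lowest to the highest time mean, Etv5 spanned 1.9-fold, Etv1 1.63-fold, Dusp6 1.58-fold, Spry1 and Spry4 1.52-fold, Spry2 1.48-fold, Spred2 1.38-fold and Spred1 1.21-fold, against 3.79-fold for Etv4. In 22 libraries Etv1 spanned 1.95-fold and Spry1 1.32-fold, and these differences in size were not tested.

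Between daytime and night 1 of 8 members was called in 24 libraries (background 1.27%) and 1 of 8 in 22 (5.78%), in both cases Etv5. In 22 libraries 1 of 8, again Etv5, had each daytime mouse above each night mouse, where 0.875% of all genes did, and in 24 libraries 0 of 8 (0.244%). The daytime differences of Spry1, Spry2, Spry4 and Dusp6 were 0.29, 0.10, 0.23 and 0.17, and 0.14, 0.11, 0.13 and 0.06 in 22 libraries, with adjusted p of 0.207 or more. At 16 h each mouse exceeded each mouse of 0 h for 6 of the 8 (Etv5, Spry1, Spry2, Spry4, Dusp6 and Spred2), against 9.25% of all genes. For Etv5, Spry1, Spry2 and Spry4 each 0 h mouse was thus below each mouse of midday and of 16 h. Whether Etv5 differed from the sprouty genes in its night value was not tested.

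In the first hour of light 0 of 8 members were called in 24 libraries (background 0.0111%). At an unadjusted p under 0.05, with no share of all genes counted at that threshold, there was 1, Etv5. DESeq2 and limma-voom also called 0 of 8 (background 0.0611% and 0.0111%). Etv5 was 0.53 above 0 h at 1 h (SE 0.13, adjusted p = 0.52), and in 22 libraries 0.54 (SE 0.07, adjusted p = 0.000366), making 1 of 8 (background 0.337%). Over 30 alternatives that adjusted p ran up to 1, and the call was made in 2 of them. Without mouse 3 of 6 h alone it was 0.0355. Etv4 and Spry4 were also at 1 h in each mouse above each mouse of 0 h, and Spry2 below, where 8.26% of all genes lay above. The share of all genes that lay below was not counted.

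**Figure D2:**
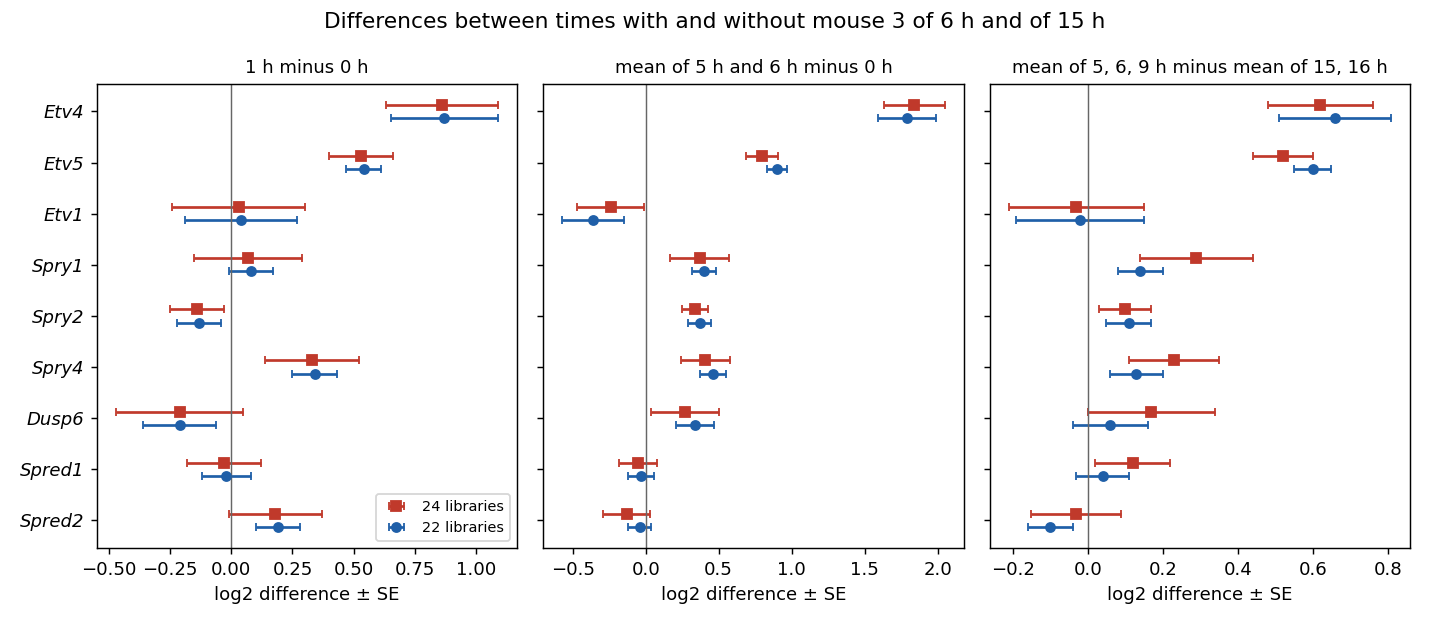
Log2 difference (x axis) with its standard error for each gene at 1 h against 0 h, at midday against 0 h and by day against night, with squares for 24 libraries and circles for 22. At midday Spry1 went from 0.37 (SE 0.20) to 0.40 (SE 0.08) and Spry2 from 0.34 (SE 0.09) to 0.37 (SE 0.08), while Etv1 went from -0.24 to -0.36 and Spred2 from -0.13 to -0.04.

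The library from mouse 3 of 15 h decided most calls that differed between the sets. It is not one of the mice compared at midday. It can enter that comparison through the spread shared by all times and through the adjustment over all genes. Without it, midday calls over all genes went from 70 to 521. Which route moved each call without this library was not tested. Leaving it out alone gave midday calls for Spry1 (adjusted p = 0.0201), Spry2 (0.0339) and Spry4 (0.0199). Without it Spry1 (0.0148), Spry4 (0.0105) and Dusp6 (0.0476) also varied over time, and Spry1 had a 24 h component (0.0184). That component of Spry1 was also called without the 15 h and 16 h libraries together, and over its alternatives the p ran from 0.0104 to 0.716. Over the alternatives, the midday p ran from 0.00396 to 0.992 for Spry1, from 0.00836 to 0.643 for Spry2 and from 0.00205 to 0.86 for Spry4. For Dusp6 over time it ran from 0.0184 to 0.703.

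Cell markers also moved between light onset and midday. Rod markers (12 of 12 measured, 0 at zero) summed to 2590 to 4070 CPM at 0 h and to 703 to 2310 at midday over the 22 libraries. RPE markers summed to 36300 to 42700 at 0 h and 43900 to 49500 at midday, and fibroblast and mural markers (10 of 10 measured) to 2230 to 2420 and 1770 to 2200. None of these 3 sums overlapped between the times in the 22 libraries. In mouse 3 of 6 h the fibroblast and mural sum was 2400 CPM, within the range of 0 h. Sums of endothelial, macrophage with mast cell, melanocyte with Schwann cell, and inner retina markers overlapped. Their part in the rise of Etv4, Etv5 and the sprouty genes was not tested. At 3 h, when Etv5 was already above 0 h, rod markers summed to 1010, 1820 and 1830 CPM and RPE markers to 39800, 37100 and 35500. At 5 h, when Etv4, Etv5, the sprouty genes and Dusp6 lay above 3 h, RPE markers summed to 48300, 46000 and 43900. Each of these RPE sums was above each sum of 3 h. Rod markers summed to 995, 2310 and 703 at 5 h, which overlapped 3 h. The part of the markers in these steps was not tested.

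The rest of the pathway was read from lists of ligands, receptors, cascade genes, other targets and other ETS factors. At midday against 0 h, 0 of 13 FGF ligands, 0 of 8 receptors and coreceptors, 0 of 24 genes of the RAS to ERK cascade, 0 of 24 other ERK target and feedback genes and 0 of 19 other ETS factors with Cic and its partners were called in 24 libraries (background 0.387%). At an unadjusted p under 0.05, with no share of all genes counted at that threshold, there were 1, 2, 1, 6 and 1 in these lists. Their medians were -0.25, -0.06, 0.04, -0.14 and -0.16, against 0.31 for the 8 members. In 22 libraries the calls were 0, 1, 1, 5 and 0 (background 5.07%), and the medians -0.16, -0.02, 0.03, -0.16 and -0.13. As a set of known daily genes, 15 core clock genes gave 8 calls, 6 higher and 2 lower, and 13 in 22 libraries. Ciart, a repressor of clock activators, varied with a 24 h component of 3.63 ± 0.29 and peaked at 7 ± 0.3 h (adjusted p = 1.18e-08), and Arntl, which encodes the activator BMAL1, one of 2.22 ± 0.16, peaking at 21.2 ± 0.2 h (adjusted p = 1.18e-08). The fitted peak of Arntl lies after 16 h, the last time sampled. The clock repressors Nr1d1 and Cry1 had fitted peaks at 5 ± 0.5 h (1.93 ± 0.19, adjusted p = 1.66e-07) and 15.3 ± 0.4 h (0.92 ± 0.08, adjusted p = 1.4e-07). Without the 15 h and 16 h libraries these 2 calls ended (adjusted p = 0.114 and 0.11).

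**Figure D3:**
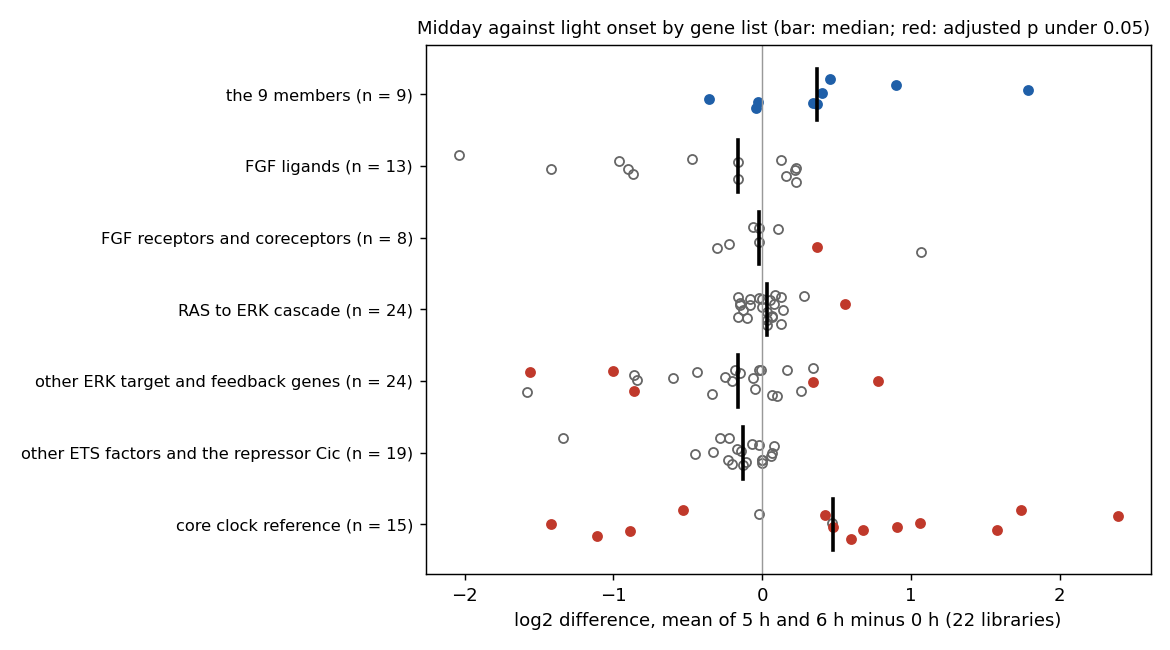
Log2 difference between midday and 0 h in 22 libraries (x axis) for each gene of the members and of the pathway lists (y axis), with black bars for list medians and red dots for genes called outside the members. The blue dots of the 9 members include Etv4 at 1.79, which was not tested, and the medians of the 5 pathway lists lie between -0.16 and 0.03.

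A few genes of these lists moved in other ways. Fgf21, an endocrine ligand, had 0 to 40 counts per library and a mean of 1.91 ± 0.652 CPM at 15 h against 0.122 ± 0.106 at 9 h (SD, n = 3). It was lower by day than at night (-2.56, SE 0.47, adjusted p = 0.00695), and its 24 h component peaked at 19.2 ± 0.8 h (3.53 ± 0.79, adjusted p = 0.0111). That fitted peak also lies after 16 h, the last time sampled. Fgfr3, an FGF receptor, had means from 122 ± 9.76 CPM at 1 h to 88.8 ± 4.14 at 16 h, with a 24 h component of 0.42 ± 0.10 that peaked at 0.4 ± 1 h (adjusted p = 0.0241). That call held in 24 of 32 alternatives, and its call over time (adjusted p = 0.0459) in 9 of 30. Rps6ka2, a kinase that ERK activates, averaged 54.4 ± 0.961 CPM in the 0 h mice, 79.1 ± 8.71 in those of 5 h and 43.8 ± 11.7 in those of 15 h. It was higher by day than at night (0.50, SE 0.11, adjusted p = 0.0245, held in 21 of 30 alternatives), and in 22 libraries higher at midday than at 0 h (0.56, SE 0.07, adjusted p = 3.89e-05). Egr1, an immediate early gene that ERK induces within minutes, varied over time (log2 range 2.95, adjusted p = 0.00819) in a different shape. Its means were 54.9 ± 52.6 CPM at 0 h, 17.5 ± 1.36 at 5 h, 65.9 ± 6.49 at 9 h, 135 ± 101 at 15 h and 19.6 ± 3.45 at 16 h, with a wide spread at 0 h and 15 h.

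Among the lists, the genes called at midday in 22 libraries alone are named here after their values were seen. Ccnd1, which encodes cyclin D1, was higher by 0.78 (adjusted p = 5.2e-05), the receptor Fgfr2 by 0.37 (adjusted p = 0.000829) and Dusp7, a phosphatase of ERK, by 0.34 (adjusted p = 0.0149). Fos, Ier2 and Egr2 were lower, with differences of -1.56 (adjusted p = 0.00605), -0.86 (adjusted p = 0.00605) and -1 (adjusted p = 0.0404). So 5 of the 24 other ERK target and feedback genes were called at midday in 22 libraries, 2 higher and 3 lower. Egr1 (-1.58, adjusted p = 0.0593), Egr3 (-0.86, adjusted p = 0.15), Junb (-0.44, adjusted p = 0.458) and Fosl1 (0.26, adjusted p = 0.645) of the same list, the last 3 also named after their values were seen, did not pass. In 24 libraries Ccnd1, Fgfr2, Dusp7, Fos, Ier2 and Egr2 did not pass, with adjusted p from 0.167 to 0.951. Nor did Egr1 (0.125), Egr3 (0.697), Junb (0.965) and Fosl1 (0.975).

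Genes shaped most like Etv4 were sought among 11993 genes averaging 5 CPM or more, by the root mean square distance between the 8 time means of log2 CPM, each gene centred on its own mean. The nearest were 3930402G23Rik at 0.24, Tpbgl at 0.27, the clock gene Per2 at 0.31, Rnf32 at 0.33 and Gfap, which marks astrocytes and stressed Müller glia, at 0.35. In 22 libraries Per2 was nearest at 0.17, 3930402G23Rik at 2, Tpbgl at 3 and Rnf32 at 6, while Gfap fell to rank 173. Among the members Spry2 ranked 104, Etv5 162, Spry4 341, Dusp6 517 and Spry1 583. Spred1 ranked 4906, Etv1 5107 and Spred2 8855. In 22 libraries the ranks were 99, 80, 150, 189 and 160, then 3893, 8744 and 6441. Gfap had a mean of 191 CPM with an SD of 250 at 0 h (n = 3). The distance takes in amplitude as well as timing, so genes with smaller steps lie farther from Etv4.

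**Figure D4:**
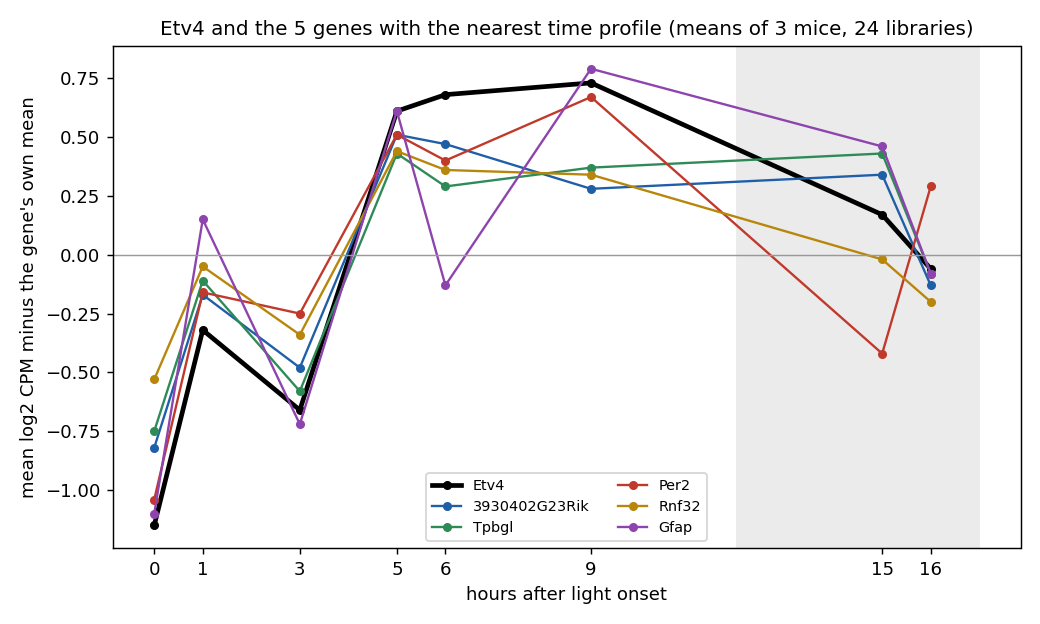
Time means of log2 CPM, each gene centred on its own mean (y axis), against hours after light onset (x axis) for Etv4 and the 5 genes nearest to it in shape. Etv4 runs from -1.15 at 0 h to 0.73 at 9 h, with a lower value at 3 h than at 1 h.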

How the data were processed

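RNA from the RPE of 24 mice was sequenced and mapped with STAR to mm10, and reads per gene were counted with HTSeq, per the submitters' processing notes, with no versions given. The deposited table holds whole counts for 54532 genes beside the authors' gene lengths. From these counts, filterByExpr (minimum count 10) left 18065 genes and 99.92% of counts. One mean per time was fitted with edgeR 4.0.16 (TMM scaling, robust quasi-likelihood F tests, R 4.3.3), and p-values were adjusted over all genes by Benjamini-Hochberg at 0.05. The 24 h component is a cosine and sine fit with jackknife SE over 24 left-out libraries. It describes a daily shape over unevenly spaced times and does not test whether that shape recurs. CPM use the TMM library sizes. Replicates were separate mice, 3 per time, and their counts in 276 pairs differed beyond sampling noise. The members, lists and tests were chosen with earlier results of these data known. The naming rule covers the members, up to 4 called genes per list by smallest adjusted p, and the 5 genes nearest to Etv4 in shape; other genes of the ERK target list and Fgfr2 were named after their values were seen. Alternatives were no filter, DESeq2 1.42.0, limma-voom (limma 3.58.1), edgeR with RLE size factors, the replicate number as a block, 22 libraries, each library left out and, for the 24 h fit, times left out. The fits were tested on simulated data. Promoter sequences are RefSeq's.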

Additional observations from a re-analysis of the deposited data

Results flagged for a closer look

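In 27 groups of libraries (9 genes at midday, by day and at night), 7 had a library set apart from the rest by a wide gap. Chance gives about 1 in 20 separate groups. These groups were not separate, since midday libraries are part of the daytime ones and all genes share the same mice. The flags fell on 5 genes at night, all in mouse 3 of 15 h, and on 2 by day, both in mouse 3 of 6 h. At midday Etv5 was at 89.5 CPM in mouse 3 of 6 h, with the next library at 131 and the highest at 153. At night, mouse 3 of 15 h held 41.1 CPM of Spry1 (next 103, highest 137), 31.4 of Spry4 (next 64.9, highest 75.5) and 161 of Dusp6 (next 395, highest 490). The same library held 39.4 CPM of Spred1 (next 57.6, highest 64.6) and 19.8 of Spred2 (next 38.5, highest 41.3). Spred2 by day was lowest in mouse 3 of 6 h, at 22.8 CPM (next 32.5, highest 41.4). In those 2 libraries mitochondria-encoded transcripts were 0.837% (15 h) and 3.34% (6 h) of counts and RPE markers summed to 123000 and 57000 CPM, and the part of these in the low values was not tested.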

How the results depend on the processing

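Etv5 kept its calls over time, at midday and by day under 30 alternatives, and Spry2 its 24 h call under 32. Counts over all genes moved more. DESeq2 called 1930 genes over time, 763 for the 24 h component, 256 at midday (with 2 of the 8 members), 559 by day and 11 at 1 h. In 22 libraries the counts were 2870 (5 members), 1126, 932 (4 members), 1062 and 62 (1 member). Without a filter they were 37 at midday and 147 by day, and 1 member was called over time. Without the 0 h libraries the 24 h fit called 138 genes and 1 member, and the cause was not tested. Leaving out each library in turn gave 118 to 1215 genes over time (1 to 5 members), 203 to 789 for 24 h (2 to 3), 12 to 521 at midday (1 to 4), 116 to 665 by day (1 to 1) and 2 to 16 at 1 h (0 to 1). The highest counts of genes came without mouse 3 of 15 h, and the lowest at midday without mouse 1 of 0 h. At 1 h the 1 member, Etv5, was called without mouse 3 of 6 h. Small differences turned sign in the same way, with none called: Etv1 from -0.42 to 0.03 at midday, -0.11 to 0.06 by day and -0.15 to 0.31 at 1 h, Spred1 from -0.13 to 0.06 at midday and -0.10 to 0.09 at 1 h, and Spred2 from -0.16 to 0.05 by day. Mouse numbers were not taken to pair the libraries, since not every pair was correlated. Deviations of 84 same-numbered pairs had a median correlation of 0.02, with 17 of them over 0.1. For 168 pairs of unlike number the median was -0.01, with 30 of them over 0.1. By mean correlation 14 of 24 libraries were nearest to their own number out of 3. This is a hint of shared deviations that was not tested and that the labels do not explain. With the replicate number as a block, 143 genes were called over time, 266 for 24 h, 57 at midday, 196 by day and 2 at 1 h, and the member counts were 2, 2, 1, 1 and 0. Depth limits Etv4 (40 to 214 counts) and Etv1 (84 to 197) most.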
